A study of Mus musculus with 24 samples.

Results

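Distal calcium and magnesium handling was followed through 10 transcripts chosen by symbol, Trpv5, Trpm6, Calb1, S100g, Slc8a1, Egf, Cnnm2, Fxyd2, Casr and Pth1r. All 10 were found among the 55335 genes counted in each kidney. All 10 were also among the 16092 genes that reached 1 CPM (the reads of a gene relative to the library size, scaled by the TMM method) in at least 1 kidney and were tested. RNA came from whole kidneys of 24 adult mice on the C57BL/6J background, 6 in each of 4 groups. The cKOm and cKOf mice were males and females of the genotype Pex5lox/lox/Pax8-rtTA/LC1, in which doxycycline (DOX) turns on Cre and removes the floxed part of Pex5, the import receptor of peroxisomes. The Ctrlm and Ctrlf mice were male and female littermates with the genotype Pex5lox/lox and without that pair of transgenes. Floxed Pex5 alleles and DOX were shared by all groups, with 2 weeks of DOX that began when mice were 8 weeks old and kidneys taken 4 weeks after its end, at ZT9 by the label of the tissue collection, although the label on housing puts all experiments at ZT3. The Pax8 promoter drives the system along the renal tubule, so whole-kidney RNA also held transcripts of cells outside its reach.

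Filtered calcium and magnesium are mostly recovered before the distal convoluted tubule, and the distal convoluted and connecting tubules set the final amount lost in urine. There, calcium enters the cell through the channel TRPV5, is carried by calbindins, and leaves through the sodium-calcium exchanger and the calcium pump. Magnesium enters through TRPM6, whose activity depends on epidermal growth factor, and parathyroid hormone and the calcium-sensing receptor adjust reabsorption in several segments. Several of the 10 genes are not limited to distal cells: CASR is most abundant in the thick ascending limb, and PTH1R and the FXYD2 subunit of the sodium pump are also made in the proximal tubule.

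Each library had 19376152 to 28470831 counts on genes, and the lowest count of a member in a kidney was 219. Pex5 itself ranged from 49.1 to 62.8 CPM with a median of 53.4 in Ctrlm mice and from 41.8 to 47.3 with a median of 43.0 in cKOm mice, with no overlap (adjusted p = 0.0219). In females it ranged from 43.0 to 61.7 CPM with a median of 48.2 in Ctrlf and from 38.0 to 48.5 with a median of 44.1 in cKOf mice, and the groups overlapped (adjusted p = 0.177). These counts cover the whole gene, so they do not measure how much of the floxed part was removed. The paper reports lower Pex5 mRNA in both sexes, with some full-length mRNA left in cKOf mice. By electron microscopy it found almost no peroxisomes in proximal tubules of either cKO group. Some kidneys stood apart from the others. Ctrlm mice 1 to 4 and cKOm mouse 4 held between 224 and 662 CPM of albumin, a liver transcript, against 15.1 to 60.2 in the other kidneys. In Ctrlm mouse 5, Ctrlf mouse 4 and cKOf mouse 6, short transcripts (454 genes with under 1500 exon bases) exceeded long ones (3635 genes with over 6000) by 0.34 to 0.66 on the log2 scale, as medians relative to the group means, against at most 0.10 in the other kidneys. Ctrlf mouse 5 differed more from the other Ctrlf mice (chi-square per degree of freedom over genes 70.5 to 92.7) than they did among themselves (16.4 to 54.1), and had the highest level of its group for 4 members, Trpv5, Calb1, S100g and Trpm6. Fewer cells of a type and less RNA per cell cannot be told apart in whole kidneys.

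Per length of annotated exon, the levels of the 10 transcripts spanned more than 2 orders of magnitude. In Ctrlf mice, S100g, the small calcium buffer calbindin-D9k, had the highest level with 438 ± 139 CPM per kb (SD, n = 6), and its range overlapped that of Fxyd2 with 310 ± 63.8. Below them stood Egf with 201 ± 10.4, Pth1r with 113 ± 20.3 and Calb1, the larger buffer calbindin-D28k, with 65.7 ± 10.4 CPM per kb, each separated from the next. Casr had 17.5 ± 1.42 and Slc8a1, the sodium-calcium exchanger, 12.8 ± 1.67 CPM per kb. The lowest levels were those of Trpv5 with 6.25 ± 1.09 and Cnnm2 with 6.15 ± 0.49, whose ranges overlapped, and of Trpm6 with 3.06 ± 0.59 CPM per kb. Both entry channels therefore had lower levels per length than the buffers of the same cells, S100g and Calb1. The order was the same in the cKO groups, and in Ctrlm mice it differed by the places of Cnnm2 and Trpv5, whose ranges overlapped there too. The length counts every annotated exon of a gene once, so it underestimates the level of genes with many alternative exons.

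**Figure D1:**
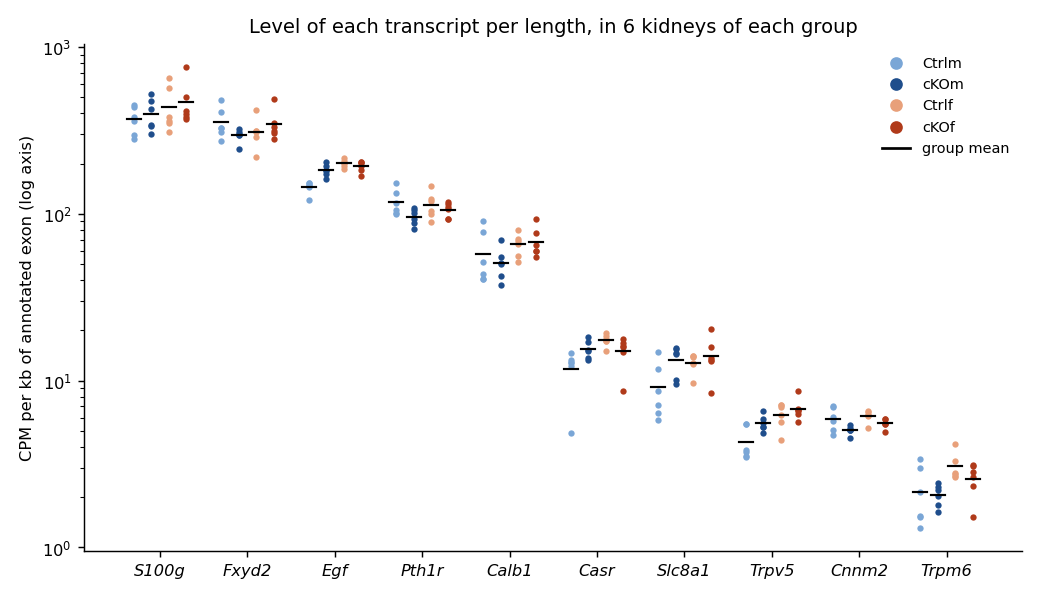
CPM per kb of annotated exon on a log axis for the 10 transcripts, with a point for each of 6 kidneys in each group and a line at the group mean. S100g and Fxyd2 lie at the top and Trpm6 at the bottom in all 4 groups, and the spread of a transcript over kidneys is small beside the distance between the top and the bottom.

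The promoters of Egf, Trpv5 and Casr are shown because these 3 members differed between control males and females. Each sequence holds the 250 bases before the RefSeq start, 5′ to 3′ on the strand of the gene (GRCm38.p6, minus strand for all 3). The Egf window is chr3:129755323-129755572, before the outermost of its 2 RefSeq starts, the Trpv5 window chr6:41680724-41680973 and the Casr window chr16:36562135-36562384. Capitals mark matches to 4 motifs searched on both strands.
Egf: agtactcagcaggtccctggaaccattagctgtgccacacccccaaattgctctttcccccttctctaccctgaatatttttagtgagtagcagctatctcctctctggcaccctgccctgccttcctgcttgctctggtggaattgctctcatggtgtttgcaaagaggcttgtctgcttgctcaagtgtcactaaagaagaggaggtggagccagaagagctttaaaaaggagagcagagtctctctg
Trpv5: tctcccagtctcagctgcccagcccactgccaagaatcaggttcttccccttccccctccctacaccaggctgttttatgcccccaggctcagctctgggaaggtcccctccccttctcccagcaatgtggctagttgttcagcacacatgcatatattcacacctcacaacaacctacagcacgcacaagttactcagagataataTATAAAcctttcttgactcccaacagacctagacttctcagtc
Casr: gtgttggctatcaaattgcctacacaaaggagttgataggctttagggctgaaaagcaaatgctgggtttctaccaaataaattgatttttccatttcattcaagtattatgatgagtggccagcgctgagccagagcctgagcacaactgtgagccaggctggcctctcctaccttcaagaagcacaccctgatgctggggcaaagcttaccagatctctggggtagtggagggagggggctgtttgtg
The motifs were AGAACA, a half-site of androgen and glucocorticoid receptors, AGGTCA, a half-site of estrogen, vitamin D and other nuclear receptors, the GC box GGGCGG and the TATA box TATAAA. Among 32851 promoters of the same length, 5284 (16.1%) held AGAACA, 4607 held AGGTCA, 10756 (32.7%) held GGGCGG and 4063 (12.4%) held TATAAA. Trpv5 held 1 match, TATAAA at position -43 counted from the start, and the windows of Egf and Casr held none. Of the 8 members with a RefSeq promoter, S100g held AGGTCA 2 times, at -220 and -107. Pth1r has 3 RefSeq starts, with AGAACA at -65 from the outermost of them and GGGCGG 1 and 4 times before the others, and Cnnm2 held 1 GGGCGG at -161. The windows of Trpm6 and Slc8a1 held none. These are letter matches and not shown binding sites.

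In males, 1 of the 10 members passed the threshold between genotypes, and 5 had a positive and 5 a negative log2 fold change. Egf, the precursor of the epidermal growth factor that activates TRPM6, was higher in cKOm than in Ctrlm mice. By comparison, 9.05% of all tested genes passed in this comparison, so the share of members was near that of all genes. Without adjustment, 6 of the 10 members and 4039 of all 16092 genes had a p under 0.05. The median log2 fold change was 0.03 over the members and 0.01 over all tested genes. In females none of the 10 passed by edgeR, and none had an unadjusted p under 0.05, against 1083 of all 16092 genes. Neither limma-voom nor DESeq2 called a member in females, with 0.851% of all genes called. The ranges of Ctrlf and cKOf mice overlapped for all 10, and did not overlap for 0.559% of all tested genes.

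Egf (chromosome 3, 129677565 to 129755316) ranged from 1371 to 1735 CPM in Ctrlm mice with a median of 1668, and from 1814 to 2305 CPM in cKOm mice with a median of 2047. Every cKOm mouse was above every Ctrlm mouse, which was so, in either direction, for 7.38% of all tested genes. The log2 fold change was 0.33 (standard error 0.07, 95% interval 0.19 to 0.48, adjusted p = 0.00388), a level 1.26 times that of Ctrlm mice. The two-sided exact permutation test gave p = 0.00216, the lowest possible with 6 mice in each group. In females the level ranged from 2100 to 2436 CPM with a median of 2270 in Ctrlf mice and from 1899 to 2307 with a median of 2237 in cKOf mice. These groups overlapped, and the log2 fold change was -0.06 (95% interval -0.21 to 0.09, adjusted p = 0.77). Without the 3 kidneys high in short transcripts, among them the lowest Ctrlm mouse, the male log2 fold change was 0.26 (adjusted p = 0.0159). Without the 5 kidneys with liver transcripts, which leaves 2 Ctrlm mice, it was 0.38 (adjusted p = 0.0779). When no filter on low counts was applied, the adjusted p was 0.0658. A pair of antisense genes shares exon bases with Egf, and between 19 and 117 counts in a kidney fell on each of them, against at least 26277 on Egf.

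The genotype difference of Egf was larger in males than in females by 0.39 on the log2 scale (standard error 0.10, 95% interval 0.19 to 0.60, interaction in edgeR, adjusted p = 0.0337), with 2.31% of all genes called. The interaction of the other 9 members did not pass the threshold. This call was close to the threshold. The adjusted p rose to between 0.0513 and 0.0711 when Ctrlm mouse 5, Ctrlf mouse 2 or 3, cKOm mouse 1, 3, 4 or 5 or cKOf mouse 1, 2 or 4 was left out, to 0.194 when no filter on low counts was applied, to 0.0603 with the replicate number as a block, to 0.0558 without the 3 kidneys high in short transcripts and to 0.0978 without the 5 with liver transcripts. With the score of liver transcripts as a covariate it was 0.0112.

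**Figure D2:**
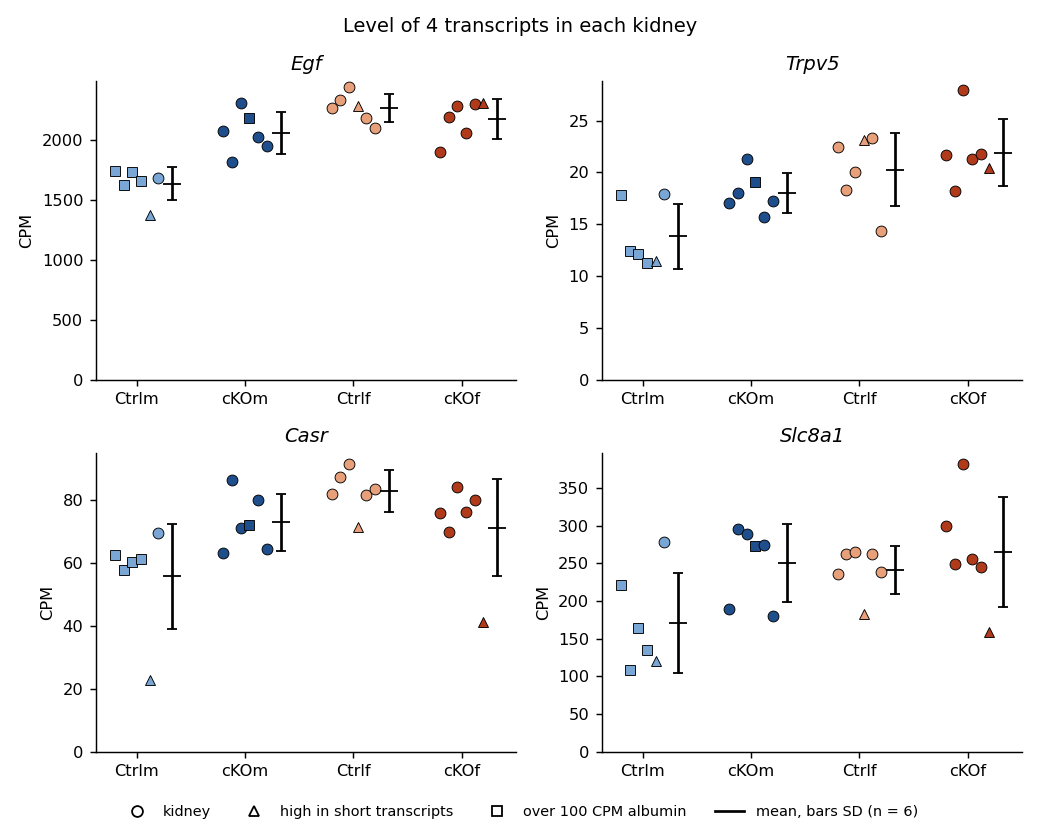
CPM of Egf, Trpv5, Casr and Slc8a1 in each kidney by group, with the mean and SD (n = 6) beside the points, triangles for the 3 kidneys high in short transcripts and squares for the 5 kidneys over 100 CPM of albumin. The 6 cKOm mice lie between 1814 and 2305 CPM for Egf, above all Ctrlm mice, and the lowest Casr values are those of 2 triangles.

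The transcripts of calcium entry and exit had higher medians in cKOm than in Ctrlm mice, without passing the threshold. Trpv5 (chromosome 6, 41652173 to 41680769), the apical calcium channel, ranged from 11.2 to 17.9 CPM in Ctrlm mice with a median of 12.3, and from 15.7 to 21.3 in cKOm mice with a median of 17.6. Of the 6 cKOm mice, 3 were above all Ctrlm mice, and the log2 fold change was 0.38 (standard error 0.14, adjusted p = 0.114). In females Trpv5 ranged from 14.3 to 23.3 CPM in Ctrlf and from 18.2 to 28.0 in cKOf mice, with almost the same medians, 21.3 and 21.5. Slc8a1 (chromosome 17, 81373105 to 81738377), which moves calcium out across the basolateral membrane, ranged from 109 to 279 CPM in Ctrlm mice with a median of 149, and from 180 to 295 in cKOm mice with a median of 274. The groups overlapped, and the log2 fold change was 0.55 (standard error 0.20, adjusted p = 0.131). The Ctrlm group was split, with mice 1 and 6 at 221 and 279 CPM and the other 4 between 109 and 164. Without Ctrlm mouse 6 the log2 fold change of Slc8a1 was 0.71 (adjusted p = 0.0200), and without Ctrlm mouse 1 that of Trpv5 was 0.47 (adjusted p = 0.0499). Without the 5 kidneys with liver transcripts these 2 differences were 0.27 and 0.25. In cKOf mice, Slc8a1 ranged from 159 to 383 CPM, a wider range than the 182 to 265 of Ctrlf mice.

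The calcium buffers differed less between genotypes than between kidneys of a group. Calb1 (chromosome 4, 15881264 to 15908064) ranged from 196 to 437 CPM in Ctrlm and from 183 to 338 in cKOm mice, with medians of 230 and 244. Its highest Ctrlm values, 378 and 437 CPM, were again those of mice 1 and 6. The log2 fold change of Calb1 was -0.17 in males (95% interval -0.55 to 0.21) and 0.05 in females (95% interval -0.32 to 0.43). In males it was -0.02 without Ctrlm mouse 6 and -0.53 (adjusted p = 0.301) without the 5 kidneys with liver transcripts. S100g (chromosome X, 162961992 to 162964599) ranged from 135 to 215 CPM in Ctrlm and 144 to 251 in cKOm mice, and from 149 to 313 in Ctrlf and 177 to 364 in cKOf mice. Its log2 fold change was 0.12 in males (95% interval -0.27 to 0.51) and 0.10 in females (95% interval -0.29 to 0.49). The male value of S100g was -0.15 without the 5 kidneys with liver transcripts, and the female value -0.01 without the 3 kidneys high in short transcripts and 0.25 without Ctrlf mouse 5.

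Apart from Egf, the transcripts of magnesium handling did not pass the threshold in either sex. Trpm6 (chromosome 19, 18749983 to 18892511), the apical magnesium channel, ranged from 10.1 to 26.1 CPM in Ctrlm mice with a median of 14.3, and from 12.5 to 18.9 in cKOm mice with a median of 16.4. The cKOm values lay within the range of Ctrlm mice, and the log2 fold change was -0.05 (95% interval -0.46 to 0.36), or -0.30 without the 5 kidneys with liver transcripts. In females it was -0.25 (95% interval -0.65 to 0.16), with a range of 20.4 to 32.2 CPM in Ctrlf mice and 1 low cKOf mouse at 11.7, the others lying at 18.1 or above, and it was -0.13 without Ctrlf mouse 5. Cnnm2 (chromosome 19, 46761596 to 46880192), a basolateral membrane protein required for magnesium retention, had negative values in both sexes. It ranged from 24.3 to 36.5 CPM in Ctrlm and from 23.4 to 28.0 in cKOm mice (log2 fold change -0.22, standard error 0.09, adjusted p = 0.193). In females it ranged from 27.0 to 33.9 CPM in Ctrlf and from 25.4 to 30.5 in cKOf mice (log2 fold change -0.15, standard error 0.09, adjusted p = 0.456). Fxyd2 (chromosome 9, 45399669 to 45410278), the sodium pump subunit in which a mutation causes magnesium loss in humans, had median levels of 1309 CPM in Ctrlm and 1202 in cKOm mice, and of 1247 in Ctrlf and 1294 in cKOf mice. Its log2 fold change was -0.26 in males (adjusted p = 0.38) and 0.15 in females (adjusted p = 0.673). The male value of Fxyd2 was -0.16 without Ctrlm mouse 5 and -0.50 (adjusted p = 0.258) without the 5 kidneys with liver transcripts, and the female value was 0.03 without cKOf mouse 6.

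The 2 receptors that sense calcium and parathyroid hormone had opposite signs in males. Casr (chromosome 16, 36493696 to 36562141), the calcium-sensing receptor, ranged from 22.9 to 69.4 CPM in Ctrlm mice with a median of 60.7, and from 62.9 to 86.2 in cKOm mice with a median of 71.6. The log2 fold change was 0.39 (standard error 0.17, adjusted p = 0.262), and 4 of 6 cKOm mice were above all Ctrlm mice. It was 0.23 without Ctrlm mouse 5, the lowest of its group, 0.20 (adjusted p = 0.121) without the 3 kidneys high in short transcripts and 0.63 (adjusted p = 0.317) without the 5 with liver transcripts. In females Casr ranged from 71.4 to 91.3 CPM in Ctrlf mice and from 41.1 to 83.9 in cKOf mice, with medians of 82.6 and 75.8 (log2 fold change -0.22, adjusted p = 0.613). The difference between these changes was 0.61 (95% interval 0.10 to 1.11) and missed the threshold (interaction in edgeR, adjusted p = 0.258). The lowest Ctrlm and cKOf values belonged to 2 of the kidneys high in short transcripts, and without the 3 such kidneys the difference was 0.35 (adjusted p = 0.0875). Pth1r (chromosome 9, 110722085 to 110747145), the parathyroid hormone receptor, ranged from 291 to 448 CPM in Ctrlm mice with a median of 324, and from 238 to 318 in cKOm mice with a median of 284. Its log2 fold change was -0.29 in males (standard error 0.11, adjusted p = 0.175) and -0.10 in females (adjusted p = 0.757). Without Ctrlm mouse 5, which was high in short transcripts and the highest of its group, the male value of Pth1r was -0.20 (edgeR, adjusted p = 0.408). It was -0.46 (adjusted p = 0.206) without the 5 kidneys with liver transcripts, a fit that kept Ctrlm mice 5 and 6. Markers of the proximal tubule, where Pth1r is also expressed, had a summed level of 11042 to 12017 CPM in cKOm and 13191 to 15526 in Ctrlm mice. Of all 16092 tested genes 789 were called and lower in cKOm mice, and so were 4 of these 9 markers. Of the others, 3 had positive log2 fold changes without passing the threshold, Slc5a12 with means of 320 CPM in Ctrlm and 495 in cKOm mice (0.63), Hnf4a with 903 and 1038, and Slc5a2 with 326 and 349. The sum was carried by Slc34a1, Slc27a2 and Lrp2, with means of 3751, 3935 and 2589 CPM in Ctrlm and 2978, 2785 and 2066 in cKOm mice. The part of these 9 markers in the values of Pth1r was not tested.

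**Figure D3:**
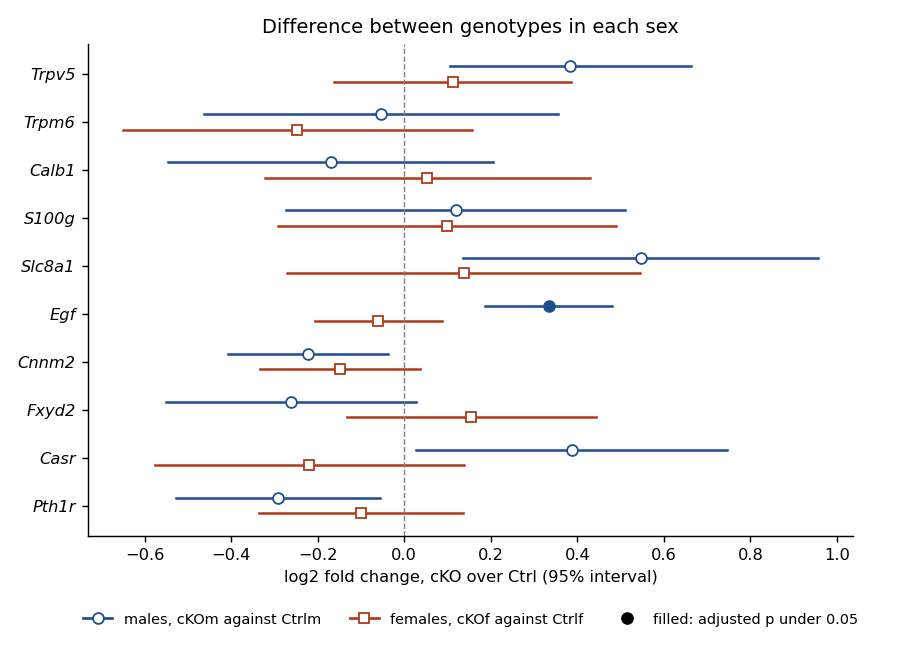
Log2 fold change of cKO over Ctrl mice with its 95% interval for the 10 members, in males (circles) and females (squares), filled where the adjusted p is under 0.05. Egf in males is the filled point, at 0.33, and all 10 female intervals include 0.

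Between control mice of the 2 sexes, 3 of the 10 members passed the threshold, Egf, Casr and Trpv5, all of them lower in Ctrlm than in Ctrlf mice. For all tested genes the share called was 16.8%, and 8.11% were called and lower in Ctrlm mice. The median log2 fold change of males over females was -0.36 for the members and -0.03 for all tested genes, and 8 of 10 members had a negative value. Egf had medians of 1668 CPM in Ctrlm and 2270 in Ctrlf mice without overlap (log2 fold change -0.47, standard error 0.07, adjusted p = 1.77e-05). Casr had medians of 60.7 and 82.6 CPM, also without overlap (log2 fold change -0.57, standard error 0.17, adjusted p = 0.0223). The ranges of the 2 sexes did not overlap for 7.35% of all tested genes. Trpv5 had medians of 12.3 and 21.3 CPM, and 4 of 6 Ctrlm mice were below all Ctrlf mice (log2 fold change -0.55, standard error 0.14, adjusted p = 0.00442). Trpm6 with -0.51 (adjusted p = 0.0775) and Slc8a1 with -0.49 (adjusted p = 0.0939) had similar values without passing the threshold, and limma-voom and the fit without Ctrlm mouse 6 called both. For S100g the sex difference was -0.25 (adjusted p = 0.426), and -0.08 without Ctrlf mouse 5.

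Among cKO mice, none of the 10 members passed the threshold between the sexes by edgeR. Without adjustment, 2 of the 10 members and 3489 of all 16092 genes had a p under 0.05. Neither limma-voom nor DESeq2 called a member, and 8.14% of all genes passed. The median log2 fold change was -0.18 for the members and -0.009 for all tested genes, and 9 of 10 members had a negative value. Egf had medians of 2047 CPM in cKOm and 2237 in cKOf mice (log2 fold change -0.08, 95% interval -0.23 to 0.07), and Casr had 71.6 and 75.8 CPM (0.03, 95% interval -0.32 to 0.39). Trpv5 had medians of 17.6 and 21.5 CPM (log2 fold change -0.28, adjusted p = 0.221). Calb1 had the largest value in this comparison, -0.42 (standard error 0.18, adjusted p = 0.173), with 4 of 6 cKOm mice below all cKOf mice. The change of the sex difference between genotypes is the same quantity as the interaction given above, which passed the threshold for Egf.

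**Figure D4:**
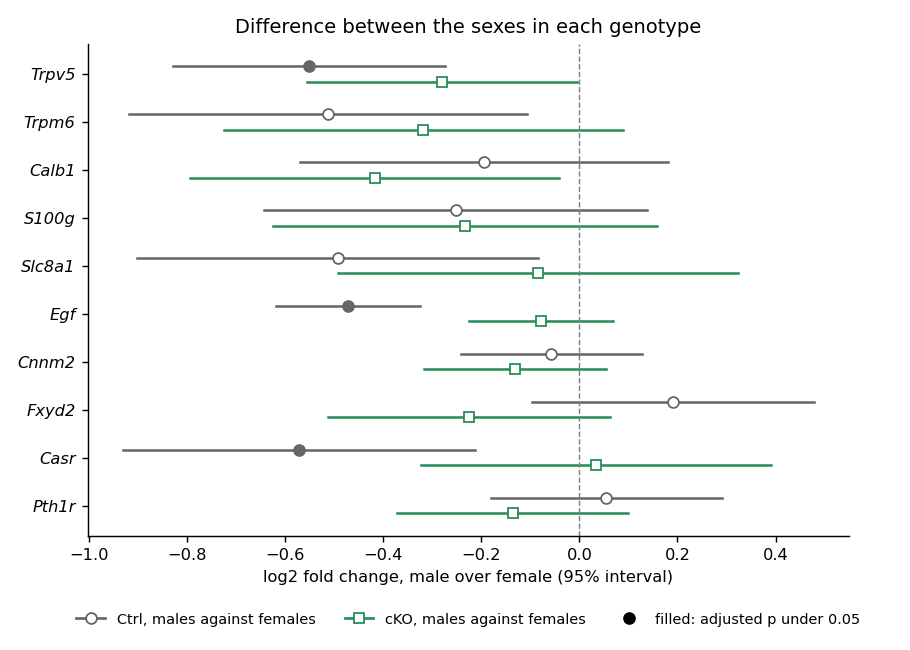
Log2 fold change of males over females with its 95% interval for the 10 members, in Ctrl (circles) and cKO mice (squares), filled where the adjusted p is under 0.05. The filled points are Trpv5, Egf and Casr in Ctrl mice, between -0.57 and -0.47, and no point of cKO mice is filled.

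Markers of distal segments, and of cell types outside them, moved with the sex difference in control mice. Of the markers of the distal convoluted tubule, 4 of 5 were lower in Ctrlm than in Ctrlf mice. So were 4 of 6 of the thick ascending limb and 3 of 8 of the connecting tubule and principal cells. The same held for 2 of 6 markers of intercalated cells and 4 of 5 of podocytes. Of all 16092 tested genes, 8.11% were called and lower in Ctrlm mice, and 1402 genes were called and higher. Of 9 markers of the proximal tubule, 3 were higher and 2 lower in Ctrlm mice, and no endothelial or leukocyte marker passed. The summed level of the markers of the thick ascending limb, where Egf and Casr are also expressed, ranged from 3607 to 4626 CPM in Ctrlm and from 4930 to 6030 in Ctrlf mice. That of the distal convoluted tubule ranged from 1166 to 2104 CPM in Ctrlm and from 1960 to 2709 in Ctrlf mice. Transcripts of the liver were higher in Ctrlm mice for 10 of 11 markers, with a summed level of 78.2 to 950 CPM against 51.1 to 119 in Ctrlf mice. The part of these markers in the sex difference of the members was not tested. With the score of liver transcripts as a covariate, the difference remained past the threshold for Egf (adjusted p = 1.65e-05) and was -0.50 for Trpv5 (adjusted p = 0.0567) and -0.54 for Casr (adjusted p = 0.135). Without the 5 kidneys with liver transcripts it was -0.55 for Egf (adjusted p = 0.00157), -0.44 for Trpv5 (adjusted p = 0.166) and -0.82 for Casr (adjusted p = 0.0592). Ctrlm mice 5 and 6 remained in that fit. Mouse 5 was high in short transcripts and had the lowest Casr of the Ctrlm mice. Without the 3 kidneys high in short transcripts the sex difference was -0.41 for Egf, -0.45 for Trpv5 and -0.44 for Casr (edgeR, adjusted p = 0.000109, 0.0354 and 0.000179).

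Over the 24 kidneys, several members varied together within groups. Levels on the log2 scale were taken relative to the mean of each group, all 45 pairs of members were compared, and kidneys were permuted within groups 100000 times. By Pearson's r, 10 pairs passed the threshold after adjustment, 8 of them positive. By Spearman's rho 3 passed, Trpv5 with Calb1, Trpm6 with Calb1 and Slc8a1 with Casr. Trpv5 and Calb1, the channel and the buffer of calcium, had r = 0.78 (permutation test, adjusted p = 0.0072) and Spearman's rho = 0.69 (permutation test, adjusted p = 0.0275), and r was 0.76 without the 2 kidneys farthest from the median of Trpv5. Calb1 and the magnesium channel Trpm6 had r = 0.75 (permutation test, adjusted p = 0.0072) and rho = 0.72 (permutation test, adjusted p = 0.0257), with r = 0.73 without the 2 farthest kidneys. Calb1 also followed Slc8a1 with r = 0.64 (permutation test, adjusted p = 0.0466) and rho = 0.57 (permutation test, adjusted p = 0.0687). For this pair r fell to 0.46 without the 2 kidneys farthest from the median of Calb1. Without the 3 kidneys high in short transcripts, r of Calb1 was 0.81 with Trpv5, 0.77 with Trpm6 and 0.84 with Slc8a1. Slc8a1 and Casr had r = 0.65 (permutation test, adjusted p = 0.043) and rho = 0.62 (permutation test, adjusted p = 0.0275), with r = 0.53 without the 2 farthest kidneys and 0.61 without the 3 kidneys. Fxyd2 and Pth1r had r = 0.60 (permutation test, adjusted p = 0.0466), which was 0.31 without the 3 kidneys. The points share library depth and the composition of whole kidneys.

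Against the mean of segment markers, 40 relations were computed over the same kidneys. Calb1 followed the 6 markers of the thick ascending limb with r = 0.76 (permutation test, adjusted p = 0.004) and rho = 0.73 (permutation test, adjusted p = 0.0116), with r = 0.77 without the 2 farthest kidneys. Trpv5 had r = 0.67 with the same markers (permutation test, adjusted p = 0.0313), where rho = 0.60 did not pass (permutation test, adjusted p = 0.09). Fxyd2 followed the 5 markers of the distal convoluted tubule with r = 0.76 (permutation test, adjusted p = 0.0044) and rho = 0.66 (permutation test, adjusted p = 0.024), with r = 0.69 without the 2 farthest kidneys. None of the 10 relations with the markers of the connecting tubule and principal cells passed, where r lay between -0.41 and 0.37 (permutation test, lowest adjusted p = 0.242), nor did any of the 10 with the markers of the proximal tubule, between -0.45 and 0.36.

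The balance of short and long transcripts in a kidney went with 4 of the 10 members. Fxyd2 had r = 0.83 with it (permutation test, adjusted p = 0.0003) and rho = 0.77 (permutation test, adjusted p = 0.00045). Pth1r had r = 0.72 (permutation test, adjusted p = 0.0001) and rho = 0.80 (permutation test, adjusted p = 0.0002), and S100g had r = 0.65 (permutation test, adjusted p = 0.0055) and rho = 0.54 (permutation test, adjusted p = 0.0176). Casr went the other way, with r = -0.86 (permutation test, adjusted p = 0.0027) and rho = -0.62 (permutation test, adjusted p = 0.0105). Without the 2 kidneys farthest from the median of the balance, r was 0.71 for Fxyd2, 0.81 for Pth1r, 0.50 for S100g and -0.58 for Casr. The negative pairs among the members, Casr with Fxyd2 (r = -0.66) and Casr with S100g (r = -0.48), had r of -0.15 and -0.11 without the 3 kidneys high in short transcripts.

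**Figure D5:**
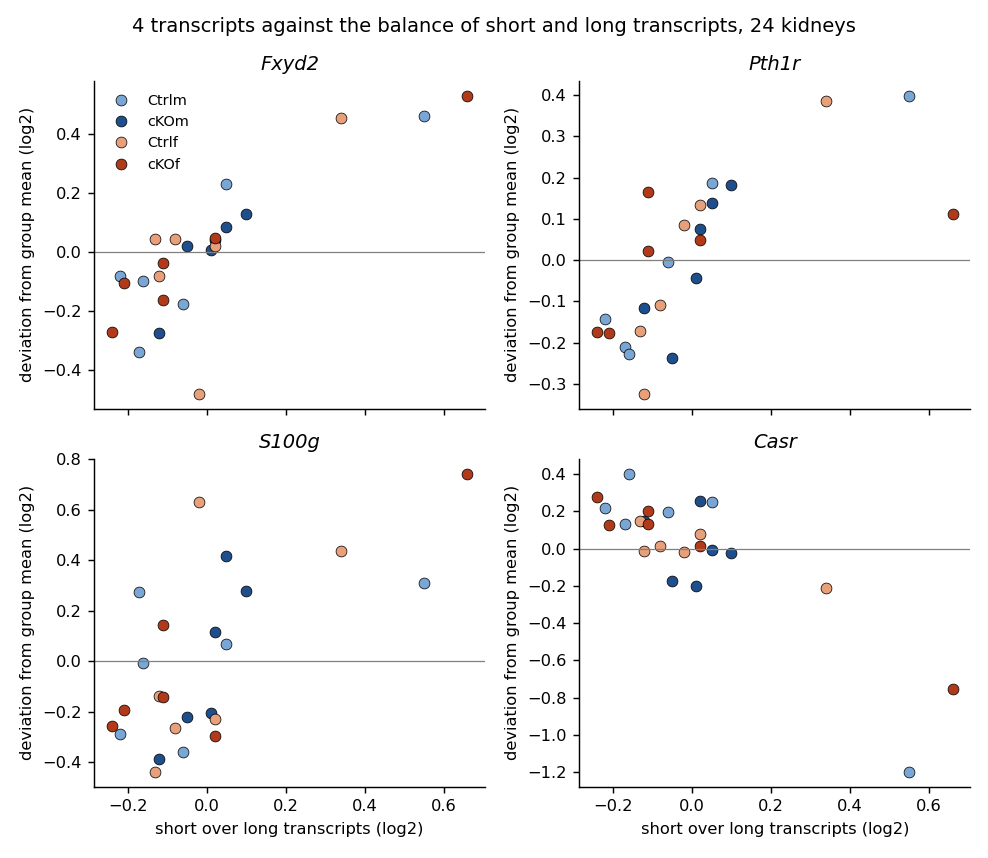
Deviation of Fxyd2, Pth1r, S100g and Casr from the group mean (log2) against the balance of short over long transcripts (log2) in 24 kidneys, coloured by group. The 3 kidneys at the right, at 0.34 to 0.66, are above the group mean for Fxyd2, Pth1r and S100g and below it for Casr.

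The genes whose pattern over the 24 kidneys was most like that of a member, by Pearson's r relative to the group means, were taken from the 3 highest of each. Picked as the highest over all tested genes, these values of r are high by selection and were not tested. For Calb1 these were Spp1 (r = 0.84), Defb1 (r = 0.82) and Trpv5. Slc8a1 was most like Kl (r = 0.87), which encodes the FGF23 coreceptor klotho, Gcm1 (r = 0.84) and Pacsin2 (r = 0.84). Egf was most like Cp (r = 0.81), Fga (r = 0.74), which is on the list of liver markers, and Lipt2 (r = 0.70). Without the 2 kidneys farthest from the median of Egf, r was 0.72 for Cp, 0.55 for Fga and 0.61 for Lipt2. Trpv5 was most like Calb1, Capn6 (r = 0.73) and Rrm2 (r = 0.72), and Trpm6 like Calb1 and A730063M14Rik (r = 0.70). Cnnm2 was most like Fam20c (r = 0.73), Sec61a1 (r = 0.70) and Gne (r = 0.70). For S100g the 3 were Thap4 (r = 0.89), Cox7a2 (r = 0.87) and Gabarap (r = 0.87), and for Pth1r Mrps7 (r = 0.83), Slc22a2 (r = 0.83) and Cmc2 (r = 0.83). Fxyd2 was most like Rps26 (r = 0.94), Cox5b (r = 0.93) and B3gat3 (r = 0.93), and Casr like Med12 (r = 0.96), Map3k3 (r = 0.92) and Hivep1 (r = 0.92). For Casr these values fell to between 0.61 and 0.72 without the 3 kidneys high in short transcripts, and those of Fxyd2 were then between 0.87 and 0.89.

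Of 45 other genes of calcium and magnesium handling, 43 were tested. In males 3 passed the threshold between genotypes, 2 higher and 1 lower in cKOm mice. This was 6.98% of the list, against 9.05% of all tested genes. Cyp27b1, the enzyme that makes active vitamin D, was lower in cKOm mice, with medians of 5.34 CPM in Ctrlm and 1.95 in cKOm mice and overlapping ranges (log2 fold change -1.64, standard error 0.40, adjusted p = 0.0118). Klk1, tissue kallikrein, a regulator of TRPV5, was higher, with medians of 1274 and 1922 CPM (log2 fold change 0.50, standard error 0.13, adjusted p = 0.0175), although it belongs to a family of near-identical copies, between which reads could be split. Esr1, the estrogen receptor, was higher too, with medians of 19.3 and 25.7 CPM (log2 fold change 0.50, standard error 0.14, adjusted p = 0.033). Without Ctrlm mouse 3 Klk1 alone passed, without cKOm mouse 3 Cyp27b1 alone, and without the 5 kidneys with liver transcripts none of the 3. In females none of the 43 passed by edgeR, limma-voom or DESeq2. An unadjusted p under 0.05 was found in females for 3 of the 43 and for 1083 of all 16092 genes. The interaction was called for none by edgeR or limma-voom and for 1 by DESeq2, Cyp27b1. Its unadjusted p was under 0.05 for 4 of the 43 and for 2159 of all 16092 genes.

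Between control mice of the 2 sexes, 10 of the 43 passed, 4 higher and 6 lower in Ctrlm mice, which was 23.3% of the list against 16.8% of all tested genes. Esr1 was higher in Ctrlm mice (log2 fold change 1.02, adjusted p = 5.19e-06), as was Slc41a2, a magnesium transporter (0.48, adjusted p = 0.00247). Pvalb, a calcium buffer of the early distal convoluted tubule, was lower (log2 fold change -0.91, adjusted p = 0.0352), as were Cnnm4, a homologue of Cnnm2 (-0.61, adjusted p = 0.000374), and Kcnj10, a basolateral potassium channel (-0.55, adjusted p = 3.44e-05). Slc12a3, the thiazide-sensitive sodium-chloride cotransporter that defines the distal convoluted tubule, was lower by the same test (-0.50, adjusted p = 0.00241). Its medians were 1533 CPM in Ctrlm and 2087 in Ctrlf mice. The ranges of Pvalb overlapped, with a Ctrlf median of 22.3 CPM and a highest value of 69.1, and its exact permutation test gave p = 0.0693. Of the genes named here, Pvalb alone did not pass without the 5 kidneys with liver transcripts.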

How the data were processed

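RNA of whole kidneys from 24 mice was sequenced after TruSeq Stranded mRNA library preparation. The authors trimmed reads with cutadapt 1.8, aligned them to GRCm38 with STAR 2.5.3a and counted them per gene with HTSeq 0.9.1, per the submitters' processing notes, and deposited whole read counts per kidney without normalization. Rows that name no gene were set aside (no feature, 4.45% to 6.66% of reads, and not uniquely aligned, 26.9% to 34.8%, highest in cKOm mouse 4). Symbols came from GENCODE M21 (55154 of 55335 genes) and promoters from RefSeq. Groups were taken from the labels.

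Genes that reached 1 CPM in any kidney were tested with edgeR 4.0.16 (R 4.3.3), TMM normalization, 1 model of 4 groups and quasi-likelihood tests. P values were adjusted by Benjamini-Hochberg jointly over both genotype tests and within every other comparison, with a threshold of 0.05. CPM were scaled by TMM, and log2 CPM used a prior count of 2. Exact permutation tests used log2 CPM and all 924 arrangements. Intervals cover 95%. A count floor of 3 was 0.105 to 0.155 CPM and covers counting error only. The procedure was tested on simulated data whose changed genes moved alike in both sexes, by more than any genotype difference of a member here. That simulation held no true interaction, so it does not show how well smaller differences or an interaction are recovered. Same-numbered kidneys of different groups did not deviate together, so numbers were not used as pairs.

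The members, the other calcium and magnesium genes and the marker lists were chosen with earlier results of these data known. Named are the 10 members, Pex5, other genes past the threshold between genotypes, the 6 largest sex differences of controls and, for each member, the 3 most similar genes, of which 1 is not reported here. Alternatives were limma-voom 3.58.1, DESeq2 1.42.0, scaling by RLE, no filter on low counts, 1 CPM in at least 6 kidneys, each sex alone or adjusted alone, a replicate block, a liver score as covariate and each kidney left out. Leaving out 3 kidneys high in short transcripts and 5 with over 100 CPM of albumin was chosen after seeing the data.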

Additional observations from a re-analysis of the deposited data

Results flagged for a closer look

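The male genotype difference of Egf differed from the female one by 0.393 on the log2 scale (edgeR test of the interaction, adjusted p = 0.0337). In 40 groups of 6 kidneys, 9 values lay far from the other 5 by Dixon's criterion, which chance alone meets in about 1 of 20 groups. The kidneys high in short transcripts gave 6 of them. In Ctrlm mouse 5, Casr was at 22.85 CPM and Egf at 1371, each the lowest of the group. In Ctrlf mouse 4, Slc8a1 was lowest at 182.4 CPM. In cKOf mouse 6, Casr was lowest at 41.1 CPM, and S100g at 364 and Fxyd2 at 1959 CPM were highest. The other 3 were Trpv5 at 27.95 CPM, highest in cKOf mouse 3, Cnnm2 at 26.98 CPM, lowest in Ctrlf mouse 3, and Fxyd2 at 974.3 CPM, lowest in cKOm mouse 5.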

How the results depend on the processing

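The count of members called in females and between cKO mice of the 2 sexes was 0 in every alternative run, as was that of other calcium and magnesium genes in females. In males, 1 member was called, 0 with no filter on low counts and without the 5 kidneys with liver transcripts, and 1 to 2 when a kidney was left out. The interaction was called for 1 member, and for 0 with no filter on low counts, with the replicate block, without the 3 kidneys high in short transcripts and without the 5 with liver transcripts, and for 0 to 1 when a kidney was left out. With the replicate block, the interaction of Egf was 0.391 (adjusted p = 0.0603). Same-numbered kidneys had correlations of -0.199 to 0.12, so the numbers did not pair them, and the block moved none of the other counts by over 1.5 times. Between control mice of the 2 sexes, 3 members were called, 5 by limma-voom, 1 with the liver score as covariate and 1 without the 5 kidneys with liver transcripts, and 3 to 5 when a kidney was left out. Of the other calcium and magnesium genes, 3 were called in males, 5 with adjustment within each sex, 0 without the 5 kidneys with liver transcripts and 1 to 4 when a kidney was left out. Between control mice 10 of them were called, and 6 without the 5 kidneys with liver transcripts.

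Signs changed for log2 fold changes that had not passed the threshold and lay between -0.194 and 0.194 by edgeR. When a kidney was left out, the ranges were -0.165 to 0.0952 for Trpm6 in males, -0.0551 to 0.12 for Calb1 and -0.0907 to 0.251 for S100g in females, and -0.156 to 0.209 for the interaction of S100g. They were -0.108 to 0.0011 for Cnnm2 and -0.0346 to 0.159 for Pth1r between control mice, and -0.196 to 0.049 for Slc8a1 and -0.0829 to 0.0869 for Casr between cKO mice. Trpm6 in males was 0.0392 by limma-voom, the interaction of S100g was -0.000543 with 1 CPM in at least 6 kidneys, and Pth1r between control mice was -0.0228 with the liver score. Without the 3 kidneys high in short transcripts, S100g in females was -0.0143 and Casr between cKO mice -0.0865. Without the 5 kidneys with liver transcripts, the interaction was -0.0443 for Trpm6 and -0.241 for S100g, Calb1 between control mice was 0.125 and S100g in males -0.149. The causes were not tested. Members had counts of at least 219 per kidney, and the part of counting error in their spread between mice was not tested.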
